A study of Sus scrofa with 96 samples.

Results

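ENSSSCT00000092050.1 is 1 of the 46295 Ensembl transcripts that were quantified in articular cartilage and synovium of the minipig knee. It was chosen by its measured values in these libraries, namely a high level in cartilage and a loss from the synovium of operated knees, so those differences are described here and were not tested. No table at hand pairs this identifier with a gene, and therefore no gene name, genome position or sequence is given for it. The row is listed with a length of 1812 bases, and 32.0% of all listed transcripts are shorter.

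Adolescent Yucatan minipigs had the anterior cruciate ligament (ACL) of 1 knee cut, and the knee then received no further treatment (ACLT), a ligament reconstruction (RECON) or a ligament repair augmented with an extracellular matrix scaffold (REPAIR). CON knees were uninjured contralateral knees of animals whose other knee had been operated on, so they are not knees of untouched animals. Tissue was collected at 52 weeks, cartilage from the medial femoral condyle and synovium from beside the medial meniscus, and each library held the RNA of 1 tissue of 1 knee. Each group had 12 knees except ACLT, which had 11 because knee ACLT 12 was left out, so 47 knees and 94 libraries were compared. The breed and the cut ligament of the operated knees were common to all 3 operated groups, and the labels give no other allele or agent.

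Articular cartilage is the smooth load-bearing layer at the ends of the bones. It holds a single cell type, the chondrocyte, in a matrix of type II collagen and aggrecan that the cells themselves make. Synovium is the lining of the joint capsule, made of fibroblast-like and macrophage-like lining cells over vascular and often fatty connective tissue, and it makes the joint fluid. Injury of the ACL is known to be followed by synovial inflammation and fibrosis and by breakdown of cartilage. In bulk tissue, fewer cells of a type and less RNA per cell cannot be told apart.

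Levels are given as CPM, the estimated count of the transcript relative to the total of its library, scaled between libraries by the trimmed mean of M-values (TMM). Library totals ran from 7483049 to 21937198 counts. A single count was therefore worth well under 1 CPM in all of them. No sources used here name the gene of any transcript, so the tissues were not checked against named markers. Instead, 2 reference sums were used. The cartilage-restricted sum is the summed CPM of 106 other transcripts that averaged 20 CPM or more in operated cartilage and at least 50 times their operated synovium average, and the synovium-restricted sum holds the 144 transcripts that met the reverse rule. The cartilage-restricted sum was 154400 to 382600 CPM in the 47 cartilage libraries and 107 to 1203 CPM in the synovium libraries. The tissue labels of the operated libraries served to choose these transcripts, so that separation was partly set by the choice. The CON libraries did not serve for it. Their sums were 171500 to 350400 CPM in cartilage and 107 to 725 CPM in synovium, so the CON libraries matched their labelled tissue.

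A pair of synovium libraries went against their labels in other ways, which bears on every synovium value below. The study lists the sex of each animal as F or CM, and 10 transcripts separated the F from the CM animals in all 47 cartilage libraries. Their summed level was at least 224.5 CPM in the synovium libraries listed as CM and at most 6.80 CPM in those listed as F, with 2 exceptions. The synovium library labelled CON 11 was listed as CM and had 4.12 CPM, and the synovium library labelled REPAIR 7 was listed as F and had 283 CPM. These 2 libraries also stood apart by treatment. Once both were set aside, every operated synovium library lay below every CON library for 8 of 25381 transcripts averaging 1 CPM or more. For 30 of the 25381 every operated library lay above. Leaving out ENSSSCT00000092050.1, the library labelled CON 11 lay on the operated side for 35 of the other 37. The library labelled REPAIR 7 lay on the CON side for 35 of them. The libraries were used as labelled, the group levels, the tests and the most similar patterns in synovium are given with and without them, and the reason for the mismatch was not tested.

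In cartilage, ENSSSCT00000092050.1 was abundant in every library of every group. Its estimated counts ran from 5002 to 28147 per library, and by deposited TPM, a scale that corrects for transcript length, it ranked between 49 and 192 of all transcripts, with a median rank of 109. CON cartilage had a lowest level of 447.5, a median of 796 and a highest of 1533 TMM-scaled CPM. ACLT cartilage ran from 730 over a median of 1059 to 1628, and RECON cartilage from 449 over 704 to 1689. REPAIR cartilage had the highest values, from 818 over a median of 1304 to 2213. All 4 groups overlapped, and even the lowest cartilage library held more of the transcript than the highest synovium library, at 282 CPM. Before TMM scaling the lowest cartilage library was at 396 CPM and the highest synovium library at 368 CPM.

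**Figure D1:**
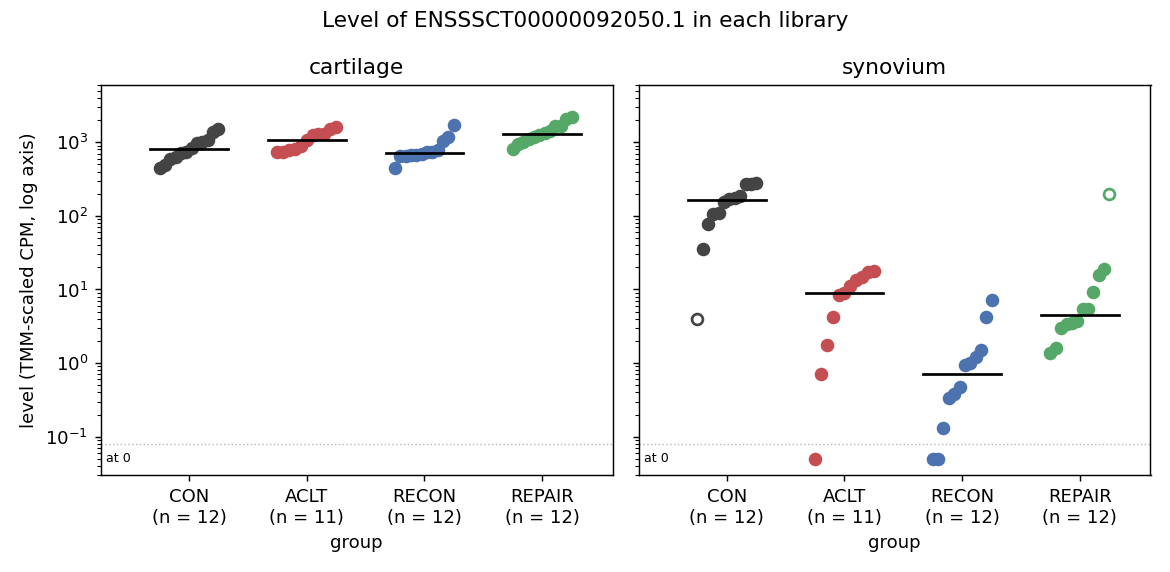
Level of the transcript in each of 94 libraries (vertical axis, TMM-scaled CPM on a log axis), by group and tissue, with black bars at the medians and libraries without a count in the strip marked "at 0". Open circles are the synovium libraries labelled CON 11 and REPAIR 7. Cartilage libraries sit between 447.5 and 2213 CPM in all groups, whereas the synovium medians are 162 CPM in CON, 9.06 in ACLT, 0.708 in RECON and 4.55 in REPAIR.

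The mean cartilage level was 872 ± 339 CPM in CON (SD, n = 12), 1089 ± 320 in ACLT (n = 11), 826 ± 331 in RECON (n = 12) and 1390 ± 441 in REPAIR (n = 12). The order of the means was thus REPAIR, ACLT, CON and RECON, and neighbouring groups differed by less than their SDs. The fit to all 94 libraries by edgeR's quasi-likelihood test gave a log2 difference from CON of 0.32 ± 0.53 (SE) for ACLT, with an adjusted p of 1. For RECON it was -0.08 ± 0.51, with an adjusted p of 1. For REPAIR it was 0.67 ± 0.52, with an adjusted p of 0.834, and for the 3 operated groups averaged it was 0.30 ± 0.43, with an adjusted p of 0.996. None of these passed the threshold of 0.05 over 40873 transcripts tested, and the share of transcripts that did was 0.259% in the ACLT comparison, 0.629% in that of RECON, 0.308% in that of REPAIR and 2.05% in the average. Among the 30447 transcripts that met a minimum count (filterByExpr) the 4 shares were 0.345%, 0.998%, 0.493% and 0.975% in the same order, so that of the average was lower and the others were higher.

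That fit shares 1 estimate of spread per transcript between the tissues, and for this transcript the spread was large. Its biological coefficient of variation was 0.891, against 0.342 for transcripts of the same mean level, whereas the SDs of the 4 cartilage groups were only 29.4% to 40.0% of their means. Fitted to cartilage libraries alone, REPAIR against CON had an SE of 0.20 and an unadjusted p of 0.00157, and the adjusted p was 0.154. A permutation test of the difference in mean log2 level, added after the values were seen, uses the cartilage values alone and counts 9 comparisons of this transcript. By it REPAIR exceeded CON by 0.71 (adjusted p = 0.00646) and RECON by 0.77 (adjusted p = 0.00369), whereas ACLT differed from CON by 0.36 (adjusted p = 0.123) and RECON from CON by -0.07 (adjusted p = 0.765). The higher level in REPAIR cartilage therefore passed the test of this 1 transcript and did not pass the correction over all transcripts. Neither the permutation test nor these fits paired the CON and operated knees of an animal, which are set side by side below.

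Among the operated groups in cartilage, edgeR gave RECON against ACLT as -0.40 ± 0.53 (adjusted p = 1, 0.0489% of transcripts called) and REPAIR against ACLT as 0.35 ± 0.53 (adjusted p = 1, 0.0391% called). REPAIR against RECON had the largest difference of the 3, at 0.75 ± 0.52 (adjusted p = 0.776, 0.0196% called). By the permutation test the first 2 pairs had adjusted p-values of 0.0719 and 0.106.

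The CON knees allow a comparison within an animal, since each of 12 animals gave a CON knee and an operated knee. Cartilage of the operated knee held more of the transcript in 10 of 12 animals, with a mean log2 difference of 0.35 ± 0.40 (SD, n = 12) and a range from -0.28 to 1.00. The exact sign-flip permutation test over all arrangements gave a two-sided p of 0.0142. In the 4 REPAIR animals the level went from 979 to 1673, from 493 to 818, from 1012 to 1256 and from 721 to 1177 CPM, so it was higher in the operated knee of each. In the 4 RECON animals it went from 593 to 732, from 637.5 to 644, from 1085 to 1177 and from 746.5 to 1025. In the 4 ACLT animals it went from 846 to 730, from 1374 to 1628, from 1533 to 1264 and from 447.5 to 895, so both animals with a lower level in the operated knee were ACLT animals. With the animal as a block, the edgeR difference of RECON from CON turned from -0.08 to 0.22 ± 0.19 (adjusted p = 1). The same blocked fit gave 0.34 ± 0.11 for the 3 operated groups averaged, with an unadjusted p of 0.00984 and an adjusted p of 0.564.

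The cartilage levels of an animal's knees also went together. Over the 12 animals the log2 level of the CON knee and of the operated knee had a Pearson r of 0.70 (permutation p = 0.0127) and a Spearman rho of 0.71 (permutation p = 0.0120). Without the 2 animals farthest from the median CON level, r was 0.76. This relation was examined after the values were seen and is the only one of its family.

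**Figure D2:**
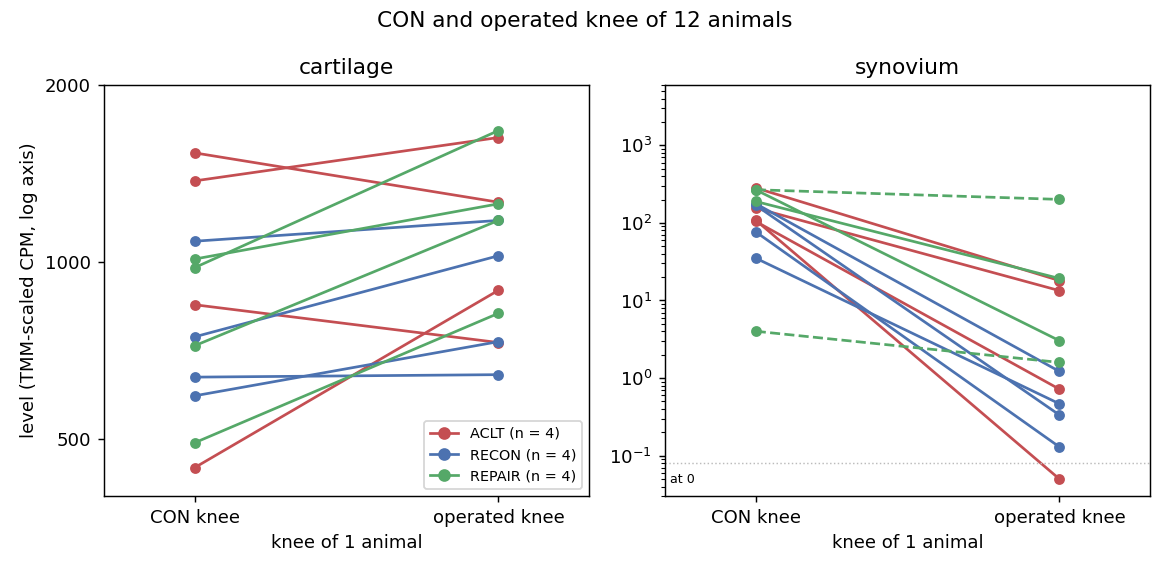
Level of the transcript in the CON and the operated knee of 12 animals (TMM-scaled CPM on log axes that differ between the panels), 1 line per animal, coloured by operated group, with dashed lines for the 2 animals whose synovium includes a library against its label. Cartilage lines stay within 447.5 to 1673 CPM and rise in 10 animals, whereas all 12 synovium lines fall, to 0 in 1 of them.

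In synovium the level differed between CON and operated knees by far more than it did in cartilage, and this is the difference that the transcript was chosen for. The study reports lower mean RNA integrity and a lower share of uniquely mapped reads in operated than in CON synovium. Whether RNA quality had a part in the synovium levels was not tested. The 12 CON libraries had 104, 108, 282, 155, 35.1, 168.5, 76.5, 177, 268, 266.5, 4.01 and 189 CPM for knees 1 to 12, so only the library labelled CON 11 was under 35 CPM. Their counts ran from 75.3 to 5103. The mean was 153 ± 91.0 CPM (SD, n = 12) and 166 ± 81.8 CPM without the library labelled CON 11.

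ACLT synovium ran from 0 over a median of 9.06 to a highest of 18.1 CPM. Knees 1 to 11 had 18.1, 8.46, 1.78, 4.28, 13.4, 14.9, 0.720, 11.3, 17.5, 9.06 and 0 CPM, and no ACLT library reached the lowest of the 11 CON libraries that matched their labels. RECON synovium was lowest, with 0.130, 4.24, 0, 0.382, 1.22, 0, 0.466, 7.25, 0.950, 1.01, 0.335 and 1.51 CPM for knees 1 to 12, and 6 of the 12 libraries were under 1 CPM before scaling. REPAIR synovium had 1.59, 3.51, 5.36, 15.7, 19.2, 5.44, 201, 3.74, 1.36, 9.35, 3.03 and 3.39 CPM for knees 1 to 12. Its library labelled REPAIR 7, at 201 CPM, lay within the range of CON, and the next highest was at 19.2 CPM.

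The mean level was 9.04 ± 6.62 CPM in ACLT (SD, n = 11), 1.46 ± 2.16 in RECON (n = 12) and 22.7 ± 56.4 in REPAIR (n = 12). The REPAIR mean was 6.52 ± 5.88 CPM (n = 11) without the library labelled REPAIR 7, so that 1 library set most of it. The CON mean was 16.9 times the ACLT mean, 105 times the RECON mean and 6.73 times the REPAIR mean. Without both libraries it was 18.4 times the ACLT mean, 114 times the RECON mean, 25.5 times the REPAIR mean and 30.0 times the mean of the 34 operated libraries. In the fit the log2 difference from CON was -4.08 for ACLT, -6.67 for RECON and -2.75 for REPAIR, and -4.22, -6.81 and -4.68 without both libraries.

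As labelled, the groups overlapped through those 2 libraries alone. Over all 47 synovium libraries 0 of 25389 transcripts averaging 1 CPM or more (0%) had every operated library below every CON library, this transcript included. Without the libraries labelled CON 11 and REPAIR 7, 8 of 25381 transcripts (0.0315%) did, and ENSSSCT00000092050.1 was 1 of them, with a lowest CON level of 35.1 and a highest operated level of 19.2 CPM. Nothing is read from this count, since the same contrast chose the transcript.

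A count of 0 was found in 3 of 35 operated synovium libraries and in no CON or cartilage library. They were ACLT 11, RECON 3 and RECON 6, with totals of 8671126, 18129647 and 9249774 counts. A count of 0 allows a level of up to 0.346, 0.165 and 0.324 CPM in these libraries, on the basis of 3 counts and with counting error only. RECON 1 came next, with 2 counts or 0.137 CPM before scaling (95% exact binomial interval 0.0165 to 0.493). ACLT 7 had 9 counts, and 8 of 35 operated libraries were under 1 CPM before scaling, so the libraries at 0 were the end of a range of low levels. By group the zeros were 1 of 11 in ACLT, 2 of 12 in RECON and 0 of 12 in REPAIR (Fisher's exact test, two-sided, p = 0.516). The cartilage of the same 3 knees had 1628, 449 and 678 CPM, which were the highest ACLT level, the lowest RECON level and a level close to the RECON median.

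The operated groups were compared with one another in synovium, which did not serve to choose the transcript. RECON against ACLT was -2.59 ± 0.59 by edgeR's quasi-likelihood test, with an adjusted p of 0.0566, and 0.0514% of transcripts were called. Without the libraries labelled CON 11 and REPAIR 7 it was -2.59 ± 0.46, with an adjusted p of 0.00407. Neither of these is an ACLT or RECON library, so the difference stayed and only the shared estimate of spread was smaller. REPAIR against RECON was 3.92 ± 0.60 with an adjusted p of 9.98e-05 (0.267% called), and 2.13 ± 0.45 with an adjusted p of 0.0287 without those libraries. REPAIR against ACLT was 1.33 ± 0.55 with an adjusted p of 0.362 (0.0122% called), and its direction turned without them, to -0.46 ± 0.43 with an adjusted p of 1.

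The low RECON level passed the permutation test over 9 comparisons, whereas RECON against ACLT had not passed in the edgeR fit to all 94 libraries. RECON lay below ACLT by 2.21 on the log2 scale with a pseudocount of 0.5 (adjusted p = 0.00646) and REPAIR above RECON by 2.44 (adjusted p = 0.00342), or by 2.00 without the library labelled REPAIR 7 (adjusted p = 0.00369). REPAIR and ACLT differed by 0.23 (adjusted p = 0.765). With only synovium libraries in the edgeR fit, RECON against ACLT was -2.58 ± 0.79 (adjusted p = 0.208). REPAIR against RECON was 3.91 ± 0.81 (adjusted p = 0.144). Both SEs were larger than the 0.59 and 0.60 of the fit that shares its spread with cartilage. With synovium alone 0 of 39120 transcripts were called in any of the 3 pairs. Of these 39120, an unadjusted p under 0.05 was found for 3204 in RECON against ACLT, 2797 in REPAIR against ACLT and 3710 in REPAIR against RECON. DESeq2 on all 94 libraries called 164, 158 and 219 of 40873 transcripts in these pairs.

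Both tissues of a knee can be set side by side, since libraries with the same group and number come from the same knee. Cartilage held more than synovium in 47 of 47 knees. The synovium level was a median of 21.0% of the cartilage level in CON knees, and 5.92% to 54.0% with a median of 23.7% in the 11 whose libraries matched their labels. It was a median of 0.751% in ACLT, 0.0912% in RECON and 0.317% in REPAIR knees, and at most 2.39% in the 34 operated knees other than REPAIR 7. Knee CON 10 had the highest share, with 493 CPM in cartilage and 266.5 in synovium. These shares depend on the scaling between the tissues. Before scaling, knee CON 10 had 396 CPM in cartilage and 333 CPM in synovium. The fitted log2 difference of cartilage from synovium in CON was 2.51 with TMM scaling and 1.92 without it.

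Within a group, the cartilage level of a knee was not seen to go with its synovium level. Pearson's r of the log2 levels was -0.11 in CON, -0.21 in ACLT, -0.08 in RECON and 0.24 in REPAIR, and Spearman's rho was 0, -0.15, 0.06 and 0.35. The 4 Pearson permutation p-values were 0.740, 0.535, 0.802 and 0.458, each adjusted to 0.802, and the 4 Spearman p-values were 1, 0.673, 0.865 and 0.267, each adjusted to 1. Without the 2 knees farthest from the median in cartilage, r was -0.27, -0.12, 0.31 and 0.34. Without the libraries against their labels, r was 0.08 in CON and 0.09 in REPAIR.

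**Figure D3:**
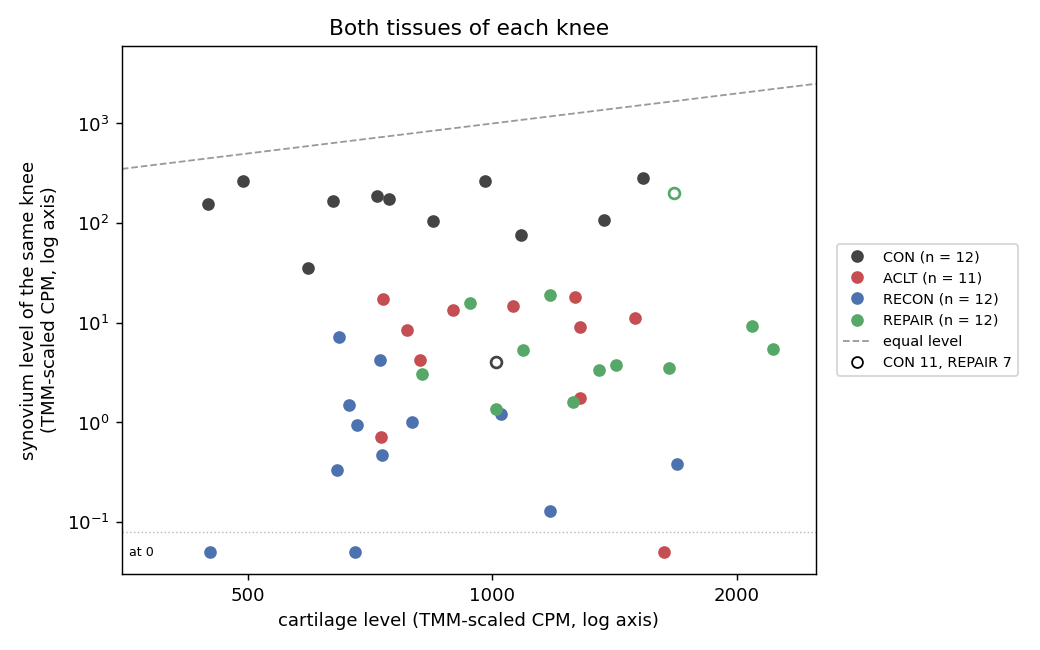
Synovium level against cartilage level of each of 47 knees (TMM-scaled CPM, both axes log), coloured by group, with a dashed line of equal levels and knees without a synovium count in the strip marked "at 0". Every knee lies under the line, the 11 CON knees with filled circles lie at 35.1 to 282 CPM in synovium, and within a group the points show no slope beyond r = 0.24.

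In synovium the transcript and the cartilage-restricted sum differed between CON and operated knees in opposite directions. The transcript was chosen for its fall there, so its own direction was set by that choice. It met the rule for the cartilage-restricted transcripts itself and was left out of their sum. In cartilage it amounted to 0.113% to 0.993% of the cartilage-restricted sum. In CON synovium it amounted to 31.5% to 332% of the sum in the 11 libraries that matched their labels. The sum there was only 107 to 429 CPM, and the transcript was at 39.9 to 368 CPM before scaling. In operated synovium the sum was higher than in CON, with a median of 570 against 178 CPM, or 572.5 against 143.5 CPM without both libraries against their labels, while the transcript was lower. In the 34 operated libraries other than REPAIR 7 the transcript was 0% to 9.27% of the sum. The sums are a description, and the part of cartilage RNA in the synovium values was not tested.

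**Figure D4:**
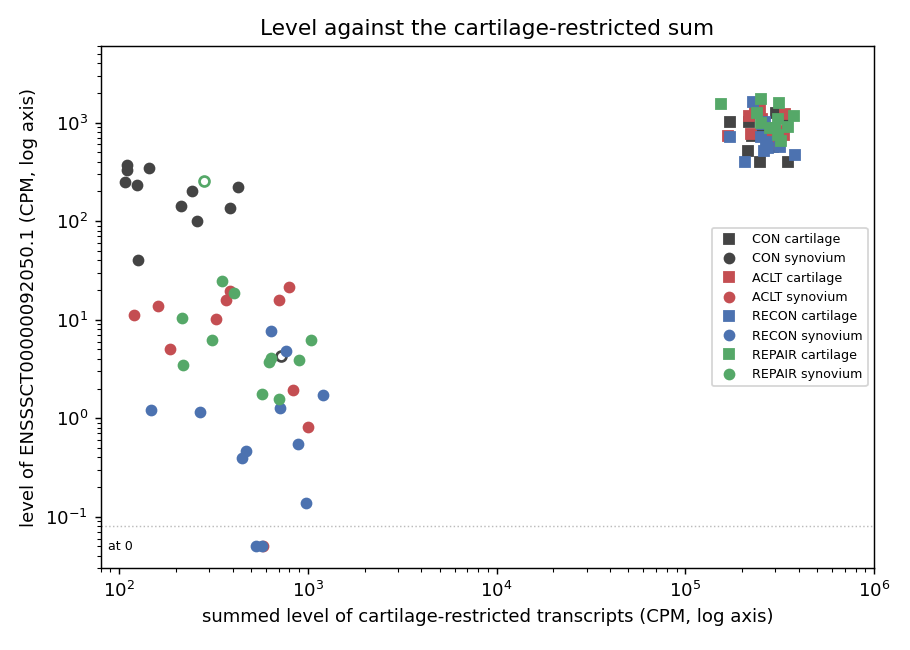
Level of the transcript (CPM without TMM scaling, log axis) against the summed level of 106 cartilage-restricted transcripts (CPM, log axis), with squares for cartilage, circles for synovium, open circles for the libraries labelled CON 11 and REPAIR 7, and libraries without a count in the strip marked "at 0". The 11 filled circles of CON synovium lie at the low end of the sum, 107 to 429 CPM, and above all filled circles of operated synovium.

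Within operated synovium the level went with the synovium-restricted sum. This relation was examined after the values were seen, together with that to the cartilage-restricted sum, and both were centred within the operated groups and permuted within them. Pearson's r of the log2 values over 35 libraries was 0.56 (permutation p = 0.00077, adjusted 0.00154) and Spearman's rho 0.62 (permutation p = 0.00018, adjusted 0.00036). Without the 2 libraries farthest from the median of the sum, r was 0.56, and without the library labelled REPAIR 7 it was 0.64. By group r was 0.73 in ACLT, 0.67 in RECON and 0.30 in REPAIR, and rho was 0.59, 0.51 and 0.29. Whether the groups differed in this relation was not tested. For the cartilage-restricted sum r was -0.28 (permutation p = 0.122) and rho -0.24 (permutation p = 0.189).

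The libraries with no count for the transcript lay at the low end of that sum. ACLT 11 had the lowest sum of its group, at 8914 CPM, and RECON 3 and RECON 6 had 10460 and 10890 CPM against a RECON median of 15060. RECON 12 had the lowest sum of its group, 9361 CPM, and was above 0 for the transcript, at 1.51 CPM. The sum itself was 17100 to 26750 CPM in the 11 matching CON libraries and 8914 to 47510 CPM in operated synovium. ACLT 8, with the highest sum of all, had 11.3 CPM of the transcript, and the library labelled REPAIR 7, with a sum of 19480 CPM, had 201 CPM.

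**Figure D5:**
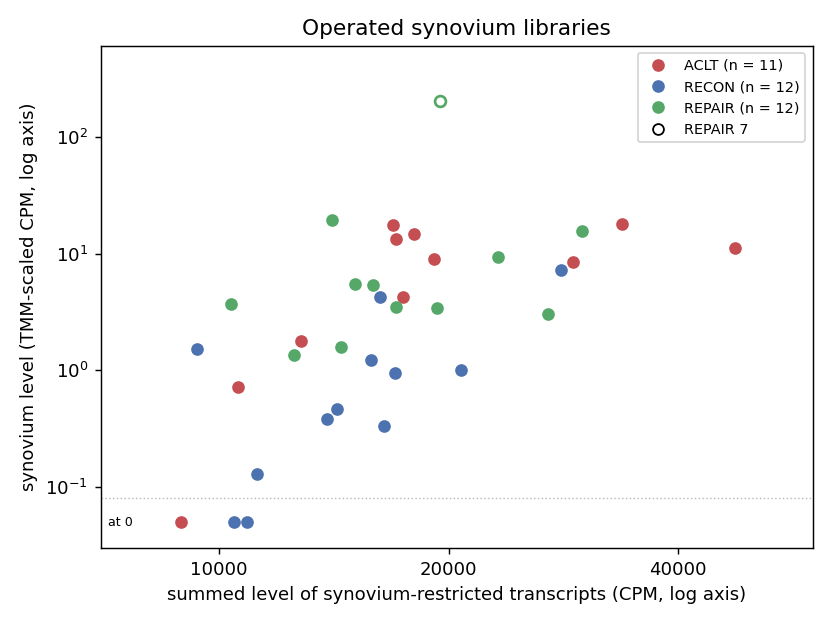
Synovium level of the transcript (TMM-scaled CPM, log axis) against the summed level of 144 synovium-restricted transcripts (CPM, log axis) in the 35 operated synovium libraries, coloured by group, with libraries without a count in the strip marked "at 0" and REPAIR 7 as an open circle. The 3 libraries at 0 have sums of 8914 to 10890 CPM. After centring within groups r is 0.56, and by group it is 0.73 in ACLT, 0.67 in RECON and 0.30 in REPAIR.

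The transcripts with the most similar patterns differed between the tissues. The measure was Pearson's r of log2 levels with a pseudocount of 0.5, given as a description, and levels are compared here in TPM because transcripts differ in length. Over the 47 synovium libraries the highest r among 25693 transcripts was that of ENSSSCT00000042951.3, at 0.90. Its mean was 62.3 ± 29.1 TPM in CON synovium and 10.7 ± 18.2 TPM in operated synovium (SD, n = 12 and 35), and it was at about 32 to 33 TPM in cartilage of CON and operated knees. Its r with ENSSSCT00000092050.1 was 0.81 within the 11 matching CON libraries and 0.69 within the 34 operated ones that matched theirs. The next were ENSSSCT00000046236.3 (r = 0.88, mean of 8.54 TPM in CON and 1.15 TPM in operated synovium), ENSSSCT00000051182.3 (r = 0.87, 11.05 and 3.32 TPM), ENSSSCT00000041977.3 (r = 0.85, 14.5 and 7.84 TPM) and ENSSSCT00000051924.2 (r = 0.84, 8.79 and 3.54 TPM). Within the CON and within the operated libraries that matched their labels, r was 0.29 and 0.64 for ENSSSCT00000046236.3, 0.72 and 0.69 for ENSSSCT00000051182.3, 0.32 and 0.66 for ENSSSCT00000041977.3, and 0.61 and 0.42 for ENSSSCT00000051924.2. Over the 45 synovium libraries that matched their labels, r over both groups was 0.90, 0.88, 0.87, 0.85 and 0.83 for these 5 in the same order. The first 4 then kept their ranks and ENSSSCT00000051924.2 was at rank 7. Without both libraries ENSSSCT00000042951.3 had a mean of 67.2 TPM in CON and 7.78 TPM in operated synovium. ENSSSCT00000092050.1 itself had a mean of 242 ± 146 TPM in CON and 16.7 ± 53.1 TPM in operated synovium, with medians of 244 and 4.95, and means of 263 and 7.86 TPM without both libraries.

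Other transcripts ran opposite to it in synovium. ENSSSCT00000053605.3 had the lowest r, at -0.89, with a mean of 15.3 TPM in CON and 35.03 TPM in operated synovium. ENSSSCT00000055469.2 (r = -0.89) had 6.42 and 40.9 TPM, and ENSSSCT00000010093.4 (r = -0.88) had 52.3 and 82.8 TPM. Over the 45 libraries that matched their labels, these 3 remained the lowest, with r of -0.89, -0.88 and -0.87. These values include the difference between CON and operated knees. Within the CON libraries that matched their labels, r was -0.54, -0.68 and -0.25 in the same order. Within the operated libraries that matched theirs, r was -0.64, -0.55 and -0.58.

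The r in synovium includes the difference between CON and operated knees that chose the transcript, so r is not compared between the tissues. Over the 47 cartilage libraries the highest r among 22858 transcripts was 0.61, for ENSSSCT00000016195.5. Its mean was 17.9 TPM in CON and 46.7 TPM in operated cartilage. ENSSSCT00000035618.3 (r = 0.60) had 5.31 and 19.5 TPM, and ENSSSCT00000084361.2 (r = 0.59) had 38.9 and 112 TPM. ENSSSCT00000057915.1 and ENSSSCT00000045751.2 both had an r of 0.56. None of these 5 was among the closest in synovium, and ENSSSCT00000084361.2 was listed at 0 in every synovium library.

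Over all 94 libraries the closest were ENSSSCT00000060749.3 (r = 0.94), ENSSSCT00000049602.2 (r = 0.93) and ENSSSCT00000070672.2 (r = 0.93). ENSSSCT00000060749.3 had a mean of 74.2 TPM in CON cartilage, 60.5 in operated cartilage, 21.6 in CON synovium and 2.21 in operated synovium, and its median in operated synovium was 0. ENSSSCT00000070672.2 had 30.2, 23.1, 10.5 and 0.754 TPM in the same order. All 3 share with ENSSSCT00000092050.1 the higher level in cartilage, and within the 34 operated synovium libraries other than REPAIR 7 their r with it was 0.20, 0.50 and 0.27. Within the 11 matching CON synovium libraries it was 0.67, 0.50 and 0.66.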

How the data were processed

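RNA of articular cartilage and synovium was sequenced by the authors and quantified against Sscrofa11.1 transcripts with Salmon 1.8.0, per the labels. Each deposited library table holds estimated counts, effective lengths (an expected length per transcript) and TPM, and the authors pooled no replicates. Counts are fractional where Salmon divides reads between transcripts. This held for the transcript in all 47 cartilage, 9 of 12 CON synovium and 9 of 35 operated synovium libraries, within a tolerance of 0.0005, so some of their reads also matched other transcripts.

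The transcript, the lists and the comparisons were chosen with earlier results of these data known. Estimated counts were rounded and fitted in R 4.3.3 with edgeR 4.0.16 (TMM, glmQLFit, glmQLFTest, 8 groups, Benjamini-Hochberg) for the 40873 transcripts above 0 in 2 or more of the 94 libraries. The SE is the log2 difference over the root of F. Alternatives were DESeq2 size factors, filterByExpr (minimum count 10), a non-zero count in at least 1 library, DESeq2 1.42.0, 2 RUVr factors, 96 libraries, 1 tissue, an effective length offset, CPM without TMM, a pseudocount of 0.1 and blocks. Permutations numbered 100000 unless exact. The procedure was tested on simulated data, in which low-count transcripts that did not change were called more often than the threshold allows. Fewer were called with filterByExpr.

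Named transcripts were the 5 with the highest r over synovium (mean of at least 1 CPM in CON synovium), the 5 highest over cartilage, the 3 lowest over synovium (1 CPM in operated synovium) and the 3 highest over 94 libraries. The 10 transcripts that separated F from CM animals had a gap of at least 2 on the log2 scale. Same-numbered libraries come from 1 knee, and pairs of knees from 1 animal, according to the study's list of animals. The authors left out knee ACLT 12 from that list, and its libraries entered no main comparison. No pair of libraries was identical. Separate knees were the replicates, and animals were in the comparisons within an animal. Tests without a block treated both knees of an animal as independent. The fits to both tissues without a block also treated both tissues of a knee as independent. Intervals and limits at a count of 0 cover counting error only.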

Additional observations from a re-analysis of the deposited data

How the results depend on the processing

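Of 129 alternative values with a test, 111 kept the direction and the side of the threshold. Of 41 without a test, 38 moved by less than 1.68, the SD of the log2 levels in CON synovium. That SD includes the library labelled CON 11. The average of the 3 operated groups against CON in cartilage had 839 of 40873 transcripts called, against 297 of 30447 with filterByExpr. In synovium, RECON against ACLT passed with 2 RUVr factors (-2.92), with knee ACLT 12 (-2.70), with DESeq2 (-2.63), without the libraries labelled CON 11 and REPAIR 7 (-2.59) and in the permutation test (-2.21 with and without them). It did not pass with synovium libraries alone in the fit (-2.58 with and without both libraries). REPAIR against RECON no longer passed with synovium libraries alone (3.91, or 2.11 also without both libraries). REPAIR against ACLT turned without both libraries, to -0.46, to -0.47 with synovium alone and to -0.21 in the permutation test. In cartilage, REPAIR against CON (0.71) and REPAIR against RECON (0.77) passed in the permutation test with and without both libraries. The correlation between the tissues of a knee, far from the threshold throughout, turned to 0.0806 in CON without both libraries and to 0.0275 in RECON with a pseudocount of 0.1. Without both libraries the described difference of REPAIR from CON in synovium moved to -4.68, that of cartilage from synovium in REPAIR to 7.75 and the REPAIR interaction to 5.35. With the knee as a block across tissues the REPAIR interaction was 5.08, against 3.42 in the main fit, a change just under the SD of CON synovium. The cause of these changes was not tested. These libraries and the permutation test were chosen after seeing the data.

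With the replicate block, in which the CON and operated knee are paired by animal, RECON against CON in cartilage turned to 0.22, and the calls of the other cartilage comparisons with CON (0.19 for ACLT, 0.61 for REPAIR and 0.34 averaged) were as without it. Leaving out 1 library at a time was not run, since every group had over 5 libraries. The levels rest on identifiers without gene names, on counts that Salmon divides between similar transcripts, and in RECON synovium on 0 to 122 counts per library.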

Other observations

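Knee ACLT 12, which was left out of the main comparisons, had 1097 TMM-scaled CPM of ENSSSCT00000092050.1 in cartilage and 17.5 CPM in synovium, from 199 counts. Both values lay within the range of the other 11 ACLT knees.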
